A study of Mus musculus with 2 samples.

Results

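The cytosolic and mitochondrial heat shock proteins described here are 10 genes chosen by symbol, the transcript name without its trailing number, with counts summed per gene identifier: Hspa8, Hsp90aa1, Hsp90ab1, Hspa4, Hsph1, Dnaja1, Hspb1, Hspa9, Hspd1 and Hspe1. All 10 were found among the 45578 genes of the deposited table, and all 10 passed the filter on low values, which asked for 10 or more footprints on average. Ribosome-protected fragments (footprints) from polysomes were counted in brains of 2 control mice at postnatal day 5, which formed a single group of biological replicates 1 and 2. Both animals were Smn+/-; SMN2tg/0, that is, heterozygous at the mouse Smn gene with 1 SMN2 transgene allele, from the Taiwanese line of spinal muscular atrophy mice on the FVB strain. These controls thus carry both alterations and are not wild type. No animal of another genotype was analysed here, so the values describe this control brain and how far its replicates differed.

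Heat shock proteins are molecular chaperones, which bind unfolded polypeptides and help them to fold, to refold or to be degraded. Hsp70 proteins work in a cycle driven by ATP, in which J-domain proteins deliver clients and stimulate hydrolysis and nucleotide exchange factors such as Hsp110 release them. Hsp90 acts later, on clients such as kinases and steroid receptors. Mitochondria have their own Hsp70, encoded by Hspa9, and a chaperonin made of Hspd1 (Hsp60) and its lid Hspe1 (Hsp10). In neurons, Hspa8 is also known for stripping clathrin from endocytosed synaptic vesicles.

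Transcription of many of these genes is raised under stress by heat shock factors, which bind arrays of inverted 5-base units with a GAA core. RefSeq promoter sequences of build GRCm38.p6, covering 250 bases before to 50 bases after a start site, were matched by symbol to 6 of the 10 genes (Hspd1, Hspe1, Dnaja1, Hspb1, Hsph1 and Hspa4). Paired units were searched as TTCNNGAA and GAANNTTC, each its own reverse complement, and arrays of 3 units as these pairs overlapping by a shared unit, in either order, so that every search covered both strands and each array contains both kinds of pair. A paired unit was present in windows of 5 of the 6 genes, Hspa4 being the exception, against 17.0% of the 27025 genes with a promoter window. An array of 3 units was present in 3 of the 6, Hspd1, Hspe1 and Hsph1, against 0.662% of all genes. The arrays of Hspd1 and Hspe1 are the same bases, counted once for each gene. A match describes the letters and is not a measured binding site.

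The stretches below are shown because they carry these pairs and arrays, and capitals mark the paired units. Hspd1 and Hspe1 are transcribed in opposite directions from 1 region, and the 215 bases between their divergent starts, chr1:55087933-55088147, are given on the plus strand, which is that of Hspe1. The array there is a single run of 18 bases that lies 72 to 89 bases before the Hspe1 start and 127 to 144 bases before that of Hspd1. The other stretches are the 150 bases before the start of Dnaja1 (chr4:40722318-40722467, plus strand), Hspb1 (chr5:135887769-135887918, plus strand) and Hsph1 (chr5:149636337-149636486, minus strand). Of 2 annotated Hsph1 starts the one farther upstream is used, and the array lies 36 to 48 bases after it, within chr5:149636288-149636303 on the minus strand.
Hspe1 and Hspd1: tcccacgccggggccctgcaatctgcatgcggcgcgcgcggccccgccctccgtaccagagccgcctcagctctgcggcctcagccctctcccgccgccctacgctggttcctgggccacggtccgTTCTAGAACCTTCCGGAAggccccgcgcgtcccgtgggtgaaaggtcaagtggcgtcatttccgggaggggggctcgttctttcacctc
Dnaja1: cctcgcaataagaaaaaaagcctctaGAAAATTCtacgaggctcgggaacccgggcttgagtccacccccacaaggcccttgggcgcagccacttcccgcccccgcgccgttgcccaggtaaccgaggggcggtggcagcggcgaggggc
Hspb1: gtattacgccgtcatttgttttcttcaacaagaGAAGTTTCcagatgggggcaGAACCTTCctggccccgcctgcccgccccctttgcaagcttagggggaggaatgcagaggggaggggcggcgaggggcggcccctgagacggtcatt
Hsph1: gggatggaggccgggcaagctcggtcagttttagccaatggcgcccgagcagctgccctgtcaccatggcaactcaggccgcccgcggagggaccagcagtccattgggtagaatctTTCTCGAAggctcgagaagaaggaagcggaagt
Hsph1 after its start: agaTTCTGGAAAGTTC

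The deposited table held 1866831 footprints in replicate 1 and 5261878 in replicate 2, over 109463 transcripts. A count of 0, taken as at most 3 counts, allowed up to 1.61 CPM (counts per 1000000 footprints of the library) in replicate 1 and 0.570 in replicate 2. The tissue label was checked against marker genes: the 7 neuronal markers took 0.530% ± 0.0950 of the footprints (SD, n = 2) and the 6 astrocyte markers 0.362% ± 0.0400, while 4 of 5 liver markers, Alb included, were at 0 in both libraries. Skeletal muscle markers had 149 footprints in replicate 1 and 293 in replicate 2, of which Acta1, whose sequence resembles that of other actins, held 140 and 264. Lens crystallins, proteins of the eye, were looked up after Cryaa had been seen, and 16 genes summed to 46 and 996 footprints. The labels name brain alone, and whether eye tissue entered replicate 2 was not tested. The exact binomial test described below called 11.5% of all genes tested lower in replicate 2 and 5.95% higher. Called lower were 5 of 7 neuronal and 4 of 5 red cell markers. The median log2 ratios of the neuronal and red cell sets were -0.55 and -0.69. Measured from genes of like mean count per transcript length they were -0.27 and -0.32. Map2 (-0.06) and Dcx (-0.03) did not pass and were above 0 with library totals. Of 5 oligodendrocyte markers 2 were called higher and 1, Olig1, lower. Of 6 astrocyte markers 2 were called lower and 0 higher. Among 5 microglial markers 1 was called higher and 1 lower, and among 5 endothelial markers 1 was called lower and 0 higher. The 1 skeletal muscle marker tested was called lower. The part of these marker differences in the values below was not tested. In whole tissue, fewer cells of a type and fewer footprints per cell cannot be told apart.

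Replicate 1 gave the 10 genes together 0.604% of its footprints, with a Clopper-Pearson 95% interval of 0.593 to 0.615, and replicate 2 gave them 0.558% (0.551 to 0.564). The mean was 0.581% ± 0.0327 (SD, n = 2). These intervals cover counting error only, and they did not overlap. In counts, which are not corrected for length, most of the family's footprints fell on its cytosolic members. The 7 cytosolic genes held 90.9% of the family's footprints in replicate 1 and 91.0% in replicate 2, and the 3 mitochondrial genes held 9.08% and 8.99%. Hspa8, Hsp90ab1 and Hsp90aa1 alone held 73.3% and 69.1%.

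Genes of different length were compared as footprint density, the CPM per kilobase of coding sequence. A gene's counts were summed over its transcripts and divided by the coding length of its coding transcript with most footprints. The median density was 205 for the 10 genes and 23.9 for the 13317 coding genes that passed the filter, and 5 of the 10 lay above the 90th percentile of those genes. The family's median, taken in each library and averaged, was 206 ± 18.7 (SD, n = 2), but 102 ± 8.25 per length of the whole transcript and 85.1 ± 4.01 with the highest coding transcript alone. The family spanned 38.4-fold from Hspa8 to Hspb1. Summed densities of the 7 cytosolic and the 3 mitochondrial genes were 2749 and 551 in replicate 1, and 2583 and 477 in replicate 2.

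**Figure D1:**
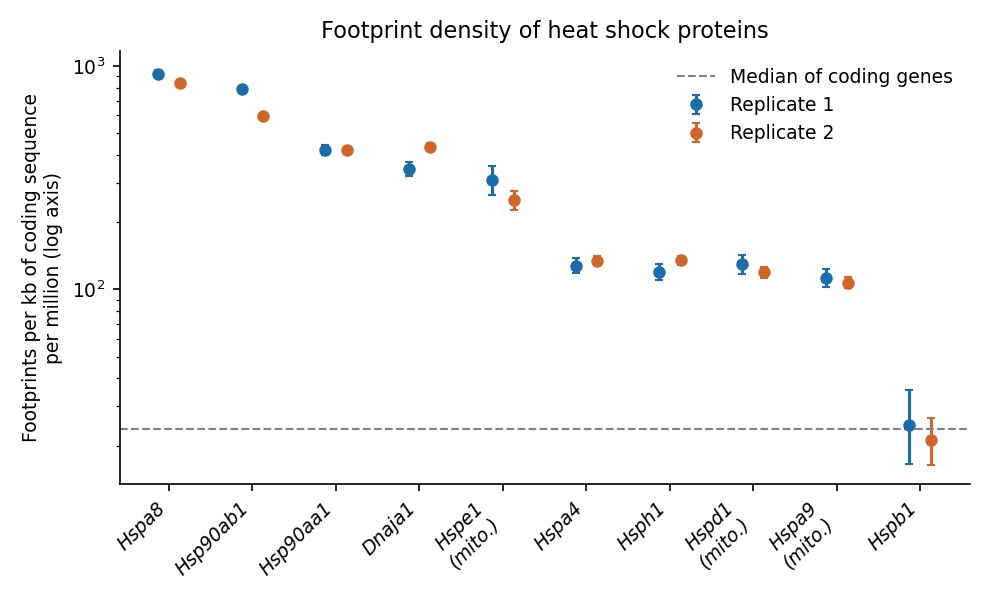
Footprint density of each gene (CPM per kb of coding sequence, log axis) in replicate 1 and replicate 2, with Clopper-Pearson 95% intervals for counting error; the dashed line is the median of coding genes, 23.9. The first 5 genes lie at 250.3 or higher in both replicates, 4 lie between 107 and 135, and Hspb1 lies at the median of coding genes.

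Hspa8 (ENSMUSG00000015656), the constitutive cytosolic Hsp70, was the densest member. Replicate 1 held 3342 of its footprints and replicate 2 held 8539. The densities were 922 and 836, so the mean was 879 ± 61.0 (SD, n = 2). This placed it at rank 67 of the 13317 coding genes. In counts it was the gene with the 11th highest mean CPM of all genes, at 1707 ± 118 CPM.

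Hspa8 stood far above its stress-inducible relatives. Hspa1a and Hspa1b, the heat-inducible Hsp70 genes, had densities of 18.2 ± 2.65 and 20.2 ± 2.89, from 72 and 165 footprints for Hspa1a and 80 and 184 for Hspa1b. Hspa2, known from its role in the male germ line, had a density of 13.3 ± 1.34. Hspa1a and Hspa1b are nearly identical copies, and short fragments of them and of Hspa8 may match more than 1 gene, so their separate counts are uncertain.

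Both cytosolic Hsp90 genes were dense, and the constitutive form exceeded the inducible one in both libraries. Hsp90ab1 (ENSMUSG00000023944), the constitutive form, had 3196 and 6855 footprints in replicates 1 and 2 and densities of 787 and 599 (693 ± 133). Hsp90aa1 (ENSMUSG00000021270), the stress-inducible form, had 1729 and 4884 footprints and densities of 421 and 422 (421 ± 0.648). Hsp90aa1 had nearly the same density in both replicates, Hsp90ab1 was higher in replicate 1, and the ranges of the pair did not overlap.

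The density ratio of Hsp90ab1 to Hsp90aa1 was 1.87 in replicate 1 (95% interval 1.76 to 1.99) and 1.42 in replicate 2 (1.37 to 1.47), and averaged 1.65 ± 0.319 (SD, n = 2). Each library's interval excluded 1, so the order held in both, but the intervals did not overlap each other. The ratio was lowest, at 1.31 ± 0.279, when coding transcripts alone were counted.

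Dnaja1 (ENSMUSG00000028410), a J-domain protein that serves cytosolic Hsp70, had 773 and 2738 footprints and densities of 347 and 436 (391 ± 62.9). Its range overlapped that of Hsp90aa1, so the order of these neighbours was not resolved. Hspa8 exceeded Dnaja1 by a density ratio of 2.66 in replicate 1 (2.46 to 2.88) and 1.92 in replicate 2 (1.84 to 2.00). The ratio thus differed between the libraries by more than counting error, and its mean of 2.29 ± 0.524 became 5.25 ± 1.20 per length of the whole transcript (SD, n = 2). The densest J protein of the list of 14 others was Dnajc5, the cysteine string protein of synaptic vesicles, at 595 ± 33.5. Dnajc7 followed at 189 ± 26.6, and the summed density of the 14 was 1725 in replicate 1 and 1816 in replicate 2.

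Hspa4 (ENSMUSG00000020361) and Hsph1 (ENSMUSG00000029657) encode Hsp110 proteins, which act as nucleotide exchange factors for Hsp70. Hspa4 had 604 and 1785 footprints and densities of 128 and 134 (131 ± 4.39). Hsph1 had 577 and 1832 footprints and densities of 120 and 135 (128 ± 10.7). The density ratio of Hspa4 to Hsph1 was 1.07 in replicate 1 (0.9501 to 1.20) and 0.993 in replicate 2 (0.930 to 1.06). Both intervals included 1, and the order of the pair differed between the libraries.

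Hspb1 (ENSMUSG00000004951), a small heat shock protein that holds unfolded proteins without ATP, was the one member near the median of coding genes. It had 29 and 70 footprints and densities of 24.7 (95% interval 16.5 to 35.4) and 21.1 (16.5 to 26.7), and a mean of 22.9 ± 2.50 (SD, n = 2). This lay at percentile 48.9 of coding genes. Its count is too low to resolve a difference between the replicates of the size seen for Hsp90ab1.

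The mitochondrial members were close to each other except for Hspe1. Hspa9 (ENSMUSG00000024359), the mitochondrial Hsp70 that also pulls proteins through the import channel, had 429 and 1152 footprints and densities of 113 and 107 (110 ± 3.77). Hspd1 (ENSMUSG00000025980) had 417 and 1079 footprints and densities of 130 and 119 (124 ± 7.52). The ranges of Hspd1 and Hspa9 did not overlap, but those of Hspd1 and Hsph1 did. The density of Hspa8 was 8.19 times that of Hspa9 in replicate 1 (7.40 to 9.07) and 7.79 times in replicate 2 (7.32 to 8.29), and these intervals overlapped.

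Hspe1 (ENSMUSG00000073676), with the short coding sequence of 309 nucleotides, had 178 and 407 footprints and densities of 309 and 250 (279 ± 41.2). In CPM it was the second lowest member, at 86.3 ± 12.7, and per length it was the fifth highest. The lid protein was thus denser than the barrel protein: the ratio of Hspd1 to Hspe1 was 0.420 in replicate 1 (0.352 to 0.504) and 0.476 in replicate 2 (0.424 to 0.535). The intervals overlapped, so the ratio of the pair, which shares the region printed above, did not differ between the libraries beyond counting error.

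The size of that ratio depends on what is counted. It was 0.448 ± 0.0391 (SD, n = 2) as given, 0.725 ± 0.106 with coding transcripts alone, and 0.798 ± 0.0697 per length of the whole transcript. It stayed below 1 in each of these settings. RefSeq also places a second Hspd1 start 95 bases past the Hspe1 start on the other strand, and the use of strand in counting is not stated, so fragments near the ends of the pair are uncertain.

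Copies of the mitochondrial genes elsewhere in the genome held many footprints. Pseudogenes were matched by symbol or RefSeq synonym to 5 of the 10 genes. The 14 matched to Hspd1 held 212 footprints in replicate 1 and 605 in replicate 2, equal to 53.5% ± 3.70 (SD, n = 2) of the count of Hspd1 itself. Hspd1-ps3 alone, annotated with the same length of 1722 nucleotides as the Hspd1 coding sequence, held 170 and 448, or 40.8% and 41.5% of the parent count.

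The other pseudogenes held less. Hspd1-ps4 had 16 and 55 footprints, Gm5268 had 7 and 31 and Gm16123 had 4 and 20. The 5 pseudogenes of Hspe1 held 29 and 100 footprints, with Hspe1-ps2 at 12 and 37, Hspe1-ps5 at 9 and 28 and Hspe1-ps3 at 3 and 22. Hspa9-ps1 had 45 and 170 footprints, or 10.5% and 14.8% of Hspa9, and Hsp25-ps1, matched to Hspb1, had 7 and 24.

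Dnaja1-ps had 1 and 11 footprints. Such copies resemble their parents in sequence, and how fragments that match both were assigned is not given in the sources used here, so the levels of Hspd1, Hspe1, Hspa9 and Hspb1 are uncertain. Copies under other names were not searched for, so the levels of the other members may be uncertain for the same reason. With the pseudogene counts added, a setting chosen after the data were examined, the ratio of Hspd1 to Hspe1 was 0.571 ± 0.0359 (SD, n = 2).

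The table names 60 transcripts for the 10 genes, from 2 for Hspb1 and Hspe1 to 11 for Hsph1. Protein-coding transcripts held 64.9% ± 0.316 of the family's footprints (SD, n = 2), against 75.5% ± 1.09 over all genes. Retained-intron transcripts took 25.0% ± 0.833, against 9.36% ± 0.387. Processed transcripts took 7.69% ± 0.734 and a single transcript marked for nonsense-mediated decay, of Hsp90ab1, took 2.39% ± 0.217. Exons are common to these classes and to the gene's coding transcripts, so a share describes how fragments were assigned and shows no translation of introns.

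**Figure D2:**
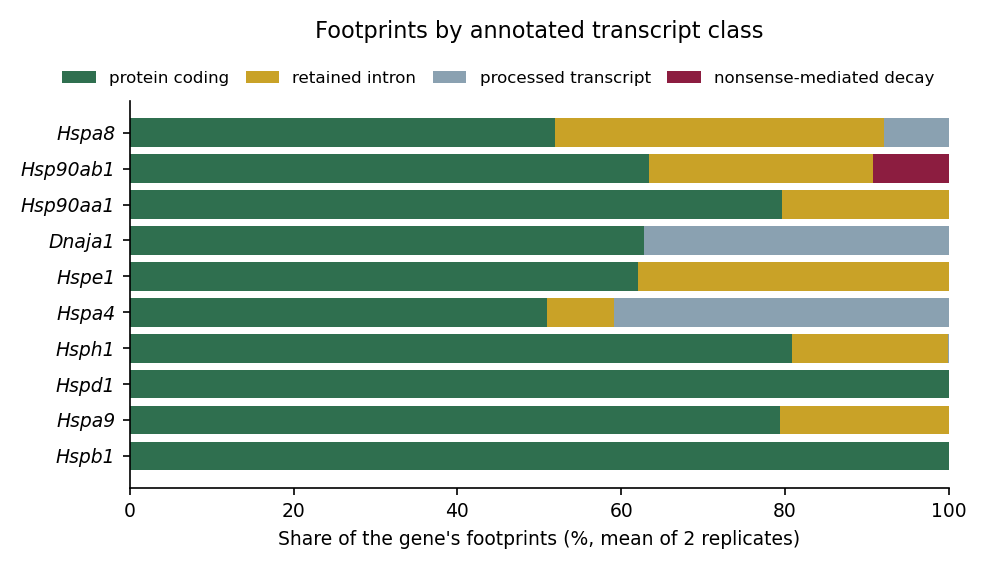
Share of each gene's footprints (percent, mean of 2 replicates) on transcripts annotated as protein coding, retained intron, processed transcript or targets of nonsense-mediated decay. Hspd1 and Hspb1 lie wholly on coding transcripts, whereas coding transcripts hold 51.0% for Hspa4 and 51.9% for Hspa8.

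The mix differed from gene to gene. Retained-intron transcripts held 40.2% ± 0.455 of the Hspa8 footprints, 38.0% ± 3.64 of those of Hspe1 and 27.3% ± 0.434 of those of Hsp90ab1 (SD, n = 2). Processed transcripts held 40.8% ± 0.630 of the Hspa4 footprints and 37.2% ± 0.427 of those of Dnaja1. The Hspa8 transcript with the longest coding sequence, Hspa8-001, held 22.3% of the gene in replicate 1 and 22.4% in replicate 2, close to the 21.5% and 21.4% of the retained-intron transcript Hspa8-002. Hspd1 and Hspb1 have coding transcripts alone in the table.

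Some genes had coding transcripts that share a coding length. Dnaja1-001 and Dnaja1-201 each have a coding length of 1194 nucleotides and differ in their annotated length of 3376 and 5622 nucleotides. Dnaja1-001 held 146 and 504 footprints and Dnaja1-201 held 133 and 476, so their shares of the gene were similar, at 18.9% and 17.2% in replicate 1 and 18.4% and 17.4% in replicate 2. Hsp90aa1-001 and Hsp90aa1-002, both with 2202 coding nucleotides, held 590 and 538 footprints in replicate 1 and 1638 and 1600 in replicate 2.

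Hsph1 is known to give a long and a shorter protein by alternative splicing. Hsph1-007, whose coding sequence is 44 codons shorter than the longest, had 94 and 341 footprints. The 2 transcripts with the longest coding sequence, of 858 codons without the stop, together had 207 and 701, and Hsph1-002, which is 41 codons shorter, had 127 and 311. Each length class was thus found in both libraries, but shared fragments do not separate the forms.

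Differences between the replicate libraries were tested with a two-sided exact binomial test per gene against the ratio of library sizes after TMM scaling (trimmed mean of M values), with Benjamini-Hochberg adjustment over 16427 genes. It compares 2 libraries and not conditions, and covers counting noise only. Of the 10 genes, 6 were called at an adjusted p under 0.05, against 17.4% of all genes tested. Lower in replicate 2 were 5 of the 10, against 11.5% of all genes, and higher was 1 of the 10, against 5.95%. The shares over all genes were not matched on count, and the test calls smaller differences at higher counts. The 6 called members had mean counts from 292.5 (Hspe1) to 5940.5 (Hspa8), whereas the genes tested start at a mean count of 10. The median absolute log2 ratio was 0.23 in the family and 0.29 over all genes tested.

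**Figure D3:**
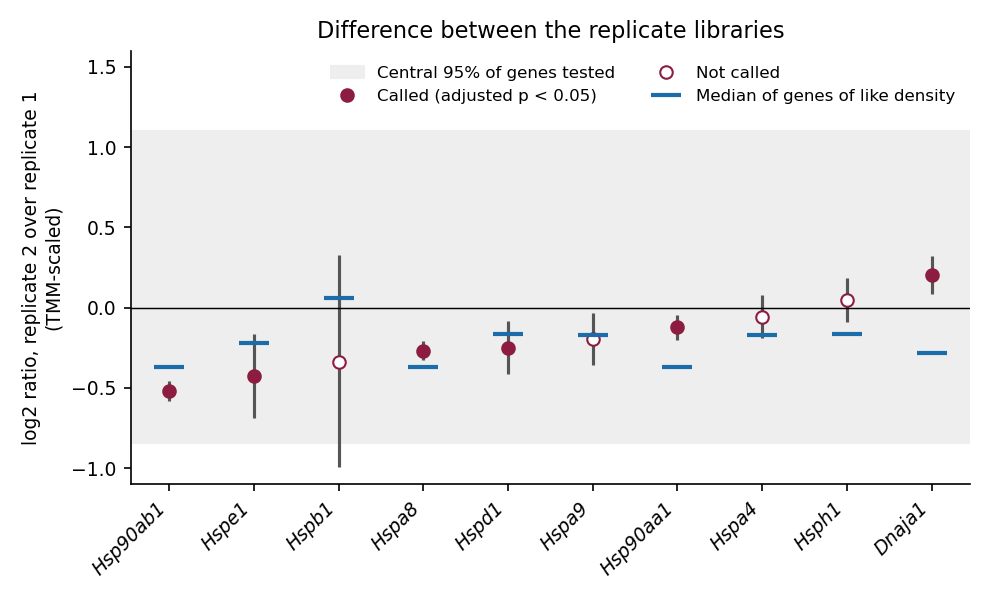
Log2 ratio of replicate 2 over replicate 1 (TMM-scaled) for each gene. Points are the estimates, filled where the exact binomial test called the gene, and vertical lines are 95% intervals for counting error. Blue bars are the median of genes of like mean count per length of their transcript with most footprints. All 10 points lie inside the grey band that holds the central 95% of genes tested, from -0.84 to 1.10.

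Hsp90ab1 had a log2 ratio of -0.52 (95% interval -0.58 to -0.46; adjusted p = 4.4e-58, exact binomial test). Hspe1 had a log2 ratio of -0.43 (adjusted p = 0.0107, exact binomial test), Hspa8 -0.27 (2.77e-17), Hspd1 -0.25 (0.0227) and Hsp90aa1 -0.12 (0.0183). Dnaja1 was the one member called higher in replicate 2, at 0.20 (0.09 to 0.32; adjusted p = 0.00483, exact binomial test). Hspa9, at -0.20, Hspa4, at -0.06, Hsph1, at 0.05, and Hspb1, at -0.34 (-0.99 to 0.33), were not called.

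The ratios were also set beside those of genes of similar density. Density was here the mean count per length of the gene's transcript with most footprints, of any class, in 50 bins. It is not the density per coding sequence used above. Genes alike by this measure had median log2 ratios of -0.37 for Hspa8, Hsp90ab1 and Hsp90aa1, -0.28 for Dnaja1, -0.22 for Hspe1 and 0.06 for Hspb1. Measured from these medians, Hsp90ab1 moved from -0.52 to -0.15 and Dnaja1 from 0.20 to 0.49, and both were still called. Hspa8 and Hsp90aa1 turned from called lower to called higher, at 0.10 and 0.25. Hspe1 (-0.21) and Hspd1 (-0.088) were then no longer called, and Hsph1 was called higher, at 0.21. In this setting 4 of the 10 were thus called higher and 1 lower, against 7.06% and 9.59% of all genes tested. The family's median log2 ratio was -0.22, beside 0.01 for all genes tested, and 0.038 measured from genes of like density. With library totals in place of TMM, 3 genes were called (Hspa8, Hsp90ab1 and Dnaja1), and Hsp90aa1 had a log2 ratio of 0.0031. Of all genes called, 34.2% were higher in replicate 2 with TMM and 60.7% with library totals. With a common dispersion estimated from the same libraries, the exact test of edgeR called 0 of the 10 and 11 of all genes tested, and had 0 of the 10 at an unadjusted p under 0.05. That dispersion already contains the difference between the libraries, so this result does not count against the binomial calls.

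Other genes of the chaperone network were taken from lists of genes known or named as its members. Calls in these lists are to be read against the 5.95% of all genes tested that were called higher and the 11.5% called lower. Hsp70 cofactors, which release or hand over its clients, were led by St13, an Hsp70-binding protein, at a density of 255 ± 12.4 (SD, n = 2) and Sgta at 141 ± 26.5. Of these 10 genes, 4 were called lower and 0 higher in replicate 2, with a median log2 ratio of -0.24. With library totals, which called 11.5% of all genes higher and 7.47% lower, 3 were lower and 0 higher. Hsp90 co-chaperones were led by Ptges3 (p23), which stabilises the closed Hsp90 clamp, at 301 ± 16.5, and Fkbp4 at 202 ± 6.70. Of the 14, 5 were called lower and 0 higher, with a median of -0.15. These counts were 4 and 2 with library totals, and 2 and 1 measured from genes of like density.

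The remaining mitochondrial chaperones and proteases had a median density of 42.3. The densest of the 14 were Dnajc19, an inner membrane J protein, at 87.3 ± 19.8 and Grpel1, the exchange factor of mitochondrial Hsp70, at 80.6 ± 13.4. Calls numbered 1 higher and 4 lower, with a median log2 ratio of -0.06, against 3 higher and 2 lower with a median of 0.06 with library totals. Of the 14 other J proteins, 2 were called higher and 3 lower, with a median of 0.13, against 4 higher and 1 lower with library totals. Among 9 other Hsp70 and Hsp110 genes the densest were Hspa13 at 119 ± 11.1 and Hspa12a at 67.4 ± 16.4. The order of these 2 rests on the coding length used, 783 nucleotides for Hspa13 (Hspa13-004) and 2028 for Hspa12a. In mean CPM Hspa12a was the higher, at 137 against 93.4. Hspa12a was the 1 called gene, lower at a log2 ratio of -0.62, and the median was -0.24.

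Heat shock factors themselves had few footprints. Hsf2 had 82 and 285 and a density of 31.6 ± 4.66, and Hsf1, the main factor of the heat shock response, had 25 and 48. Hsbp1, a small protein that binds heat shock factor trimers, had 321 and 553 and a density of 599.7 ± 205. It was the 1 called gene of the 3 tested in this list, lower in replicate 2 at a log2 ratio of -0.83, and the median of the 3 was -0.65.

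A further list held 9 other genes with small heat shock symbols or alpha crystallin names, and a symbol alone does not make a gene's product a chaperone. The densest were Hspb11 at 37.3 ± 8.88 and Cryab, alpha B crystallin, at 23.4 ± 8.67, and the median density of the 9 was 12.1. Of the 9 in the list, 6 were tested, 1 was called higher and 0 lower, and the median log2 ratio was 0.50, which does not depend on the fitted value of the called gene, the highest of the 6. The called gene was Cryaa, alpha A crystallin, a structural protein of the eye lens, which was at 0 in replicate 1 and had 109 footprints in replicate 2. At 20.7 CPM it was at least 12.9-fold higher than the floor of 3 counts in replicate 1. Each of the 16 crystallins had a higher CPM in replicate 2 than in replicate 1. For Cryba2 (0.760 CPM) and Crygn (1.52 CPM), both at 0 in replicate 1, it stayed below that library's floor of 1.61 CPM, so no difference was shown. Cryab, Cryba1, Cryba4 and Crybb1 were tested and not called. Crybb2 and Crygs, with 14 and 12 footprints in replicate 2, fell under the filter and were not tested. Without Cryaa and Cryab the median log2 ratio of the 4 small heat shock genes left was 0.37, with 0 called.

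**Figure D4:**
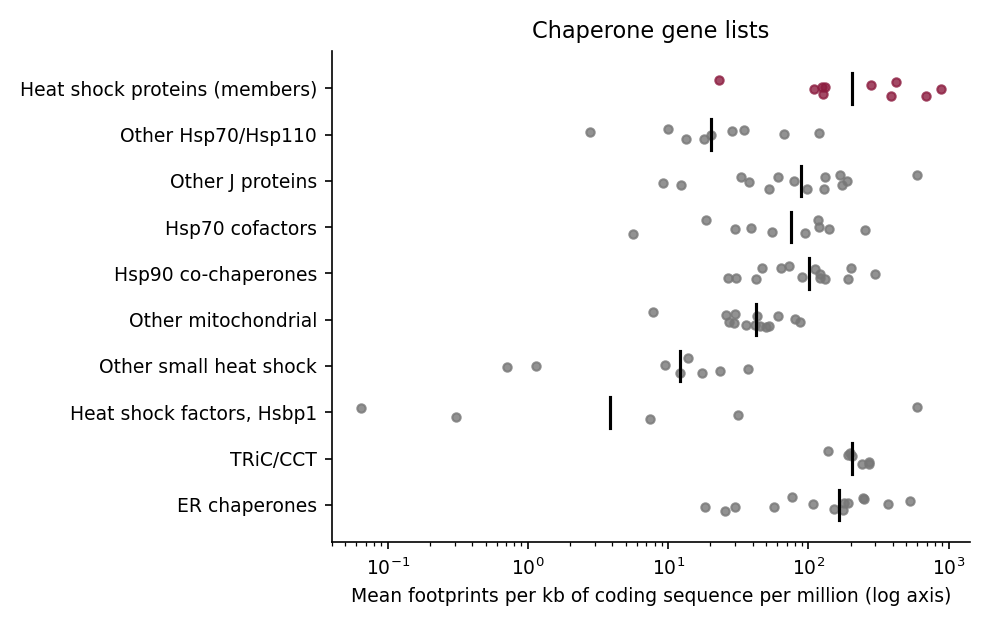
Mean footprint density of each gene (CPM per kb of coding sequence, log axis, mean of 2 replicates) in the 10 heat shock protein genes and in 9 lists of related genes; black bars are list medians and genes at 0 are not drawn. The 10 members spread from 22.9 to 879, whereas the 7 TRiC/CCT subunits with an annotated coding length lie between 137 and 272.

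The family was set beside 2 other chaperone systems. TRiC/CCT, the cytosolic chaperonin that folds actin and tubulin, is built from 8 different subunits. Cct6a, with 746 and 2080 footprints, has no coding transcript in the table and so no density. The other 7 had a median density of 204 and spanned 1.99-fold, with Cct8 and Tcp1 highest, both at 272. The 14 endoplasmic reticulum chaperones had a median of 164 and spanned 28.7-fold, led by Calr at 528 ± 113 and Canx at 368 ± 31.8. In replicate 2, 7 of these 14 were called lower and 0 higher, with a median log2 ratio of -0.20. Of the 8 TRiC/CCT genes, 2 were called lower and 1 higher, with a median of -0.07. Measured from genes of like density, these calls were 2 and 0 for the 14, and 2 and 4 for TRiC/CCT. Of the footprints, TRiC/CCT took 0.284% ± 0.00289 and the endoplasmic reticulum chaperones 0.375% ± 0.0310 (SD, n = 2). No test of these differences was made, because the lists differ in what their members do and the genes are not replicates.

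The order of the 10 genes by mean density was Hspa8, Hsp90ab1, Hsp90aa1, Dnaja1, Hspe1, Hspa4, Hsph1, Hspd1, Hspa9 and Hspb1. Neighbours whose ranges over the replicates overlapped were Hsp90aa1 and Dnaja1, Hspa4 and Hsph1, and Hsph1 and Hspd1. The first 5 places and the last were the same with coding transcripts alone and with the whole transcript length, while Hspa4 fell to ninth place in both. With the highest coding transcript alone, Hsp90ab1 came first, and Dnaja1 fell below Hspa9 and Hspd1.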

How the data were processed

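The authors deposited whole-number counts of footprints per transcript, 1 column per replicate, with annotated lengths in nucleotides. Per the labels' protocols, the pooled polysomal fractions were treated with RNase I and fragments of 25 to 35 nucleotides were selected. The submitters' processing notes name Trimmomatic 0.36, Bowtie2 2.2.6, SAMtools and build GRCm38.p4, without roles; the annotation release, the use of strand, duplicates and multiple matches are not given in the sources used here. Counts were summed per gene, because pairs of transcripts of identical lengths in 31 genes differed like independent counts. Their mean squared difference over sum was 0.992 over 64 comparisons. CPM values used library totals. Log2 ratios used TMM factors from edgeR 4.0.16 (0.957 and 1.04) and a prior of 0.5 CPM. The factors moved log2 ratios by -0.13, and by less where counts were low, because of the prior. Binomial tests and Clopper-Pearson intervals used scipy 1.17.1 and cover counting error only, since PCR copies are not independent. The calls and log2 ratios, but not the intervals, were tested on simulated data. No contrast exists, so no quasi-likelihood test was run. Named genes were the 10 members, the 2 densest genes of each related list, list genes called with an absolute log2 ratio of at least 1, Hspa1a, Hspa1b and Hspa2, and pseudogenes with a mean count of at least 10; Hsf1, Cct6a, Dnaja1-ps, the single marker genes and crystallins other than Cryaa and Cryab were added after their values were seen, as were the other scalings of the related lists. The members and lists were chosen with earlier results of these data known. Coordinates come from RefSeq GRCm38.p6.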

Additional observations from a re-analysis of the deposited data

How the results depend on the processing

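No paired analysis was possible because both replicates belong to 1 group. Against 0.581%, the family's share was 0.499% with coding transcripts only and 0.400% with each gene's highest transcript. The median density, taken in each library and averaged, was 206, and became 149 with coding transcripts, 102 per whole transcript, 85.1 with the highest coding transcript and 260 with pseudogenes added. The ratio of Hsp90ab1 to Hsp90aa1 was 2.12 per whole transcript, 1.31 with coding transcripts and 2.10 with the highest one. The ratio of Hspd1 to Hspe1 was 0.798, 0.725 and 0.571 per whole transcript, with coding transcripts and with pseudogenes added. The ratio of Hspa8 to Dnaja1 was 5.25 per whole transcript. Called genes numbered 3 with library totals, 3 with the highest transcript per gene and 0 with edgeR's exact test, which found 0 at an unadjusted p under 0.05. Over all genes these settings called 3123, 1444 and 11, against 2861. The dispersion of edgeR's test was estimated from the same libraries that it compares, so it already contains their difference. Its result therefore does not count against the binomial calls. The share called higher of all called genes was 34.2% and 60.7% with library totals. The median log2 ratio reversed to 0.038 with the density trend removed, as did Hspa8 (0.10) and Hsp90aa1 (0.25). In that setting 4 of the 10 genes were called higher and 1 lower, against 1 higher and 5 lower with the main setting. Hsp90aa1 also reversed with library totals (0.0031). The cause was not tested, apart from the lengths and transcripts left out by construction. Leaving out 1 replicate gave 0.558% to 0.604% for the share, 193 to 219 for the median density, and ratios of 1.42 to 1.87, 0.420 to 0.476 and 1.92 to 2.66. It left no comparison of libraries. Depth limits Hspb1 most.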

Other observations

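The Cryaa footprints of replicate 2 were accompanied by those of other lens crystallins, which were looked up after Cryaa had been seen. Crystallins are the bulk proteins of the eye lens. Of 16 crystallin genes, 11 had 0 footprints in replicate 1 and all 16 had some in replicate 2, and their summed counts were 46 and 996. The 6 gamma crystallins from Cryga to Crygf, which are characteristic of lens fibre cells, were all at 0 in replicate 1 and had 78 to 125 footprints each in replicate 2. Cryga, with 125, was at least 14.8-fold higher in replicate 2 than the floor of 3 counts in replicate 1, and Crygf, with 78, at least 9.22-fold. The labels name brain alone, and whether eye tissue entered the second sample was not tested. The gamma crystallin genes resemble each other in sequence, to a degree not measured here, so their separate counts are uncertain. Cryab and Crybb1 were found in both libraries, with 17 and 82 footprints for Cryab and 18 and 84 for Crybb1. Neither was called by the exact binomial test.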
